A study of Syntrichia ruralis with 8 samples.

Results

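The comparison set total RNA of rapid-dried, rehydrated gametophytes of the desiccation-tolerant moss Tortula ruralis (also named Syntrichia ruralis) against total RNA of hydrated gametophytes. Its members were the 2 arrays whose source name gives that material, slide 3 (array 1) and slide 2 (array 2), of 8 arrays in all. Each is a 2-colour cDNA array, on which both RNAs compete for the same spots, carrying 768 clones in 3 spots each. On array 1 the treated RNA carried the dye Cy3 and the hydrated RNA Cy5, and on array 2 the dyes were exchanged. Of the 768 clones, 207 carried an annotation and 561 were listed as unknown. All were measured on both arrays.

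The gametophyte is the leafy haploid moss plant. All plants had been collected in the field, stored dry and then kept hydrated for 48 h. For the rapid-dried, rehydrated group, fresh tissue was dried on filter paper above activated silica gel, wetted again for 2 h and frozen. The hydrated group was frozen after the 48 h without drying. RNA of each preparation was pooled from many plants of at least 3 clumps, and probes were made from a set mass of poly(A) RNA. The design text gives 2 separate RNA preparations for each pair of dye-swapped hybridizations, but no label says which array holds which, so the 2 arrays may share hydrated RNA. Other arrays set slow-dried total RNA (dried for 24 h at 66% relative humidity and 20 °C, not rewetted) and rapid-dried, rehydrated polysomal RNA, the fraction bound to several ribosomes, against hydrated RNA of the same fraction. The polysomal RNA was not made from the samples that gave the total RNA. In such bulk RNA, fewer cells of a type and less RNA per cell cannot be told apart.

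Tortula ruralis loses nearly all its cell water without dying and resumes photosynthesis and protein synthesis soon after rewetting. It is known to combine protection that is present at all times, such as sugars and late embryogenesis abundant (LEA) proteins, with repair during rehydration. Proteins made mainly during rehydration are called rehydrins, and rapid drying leaves the plant little time to change its transcripts before water is lost.

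Values below are log2 ratios, treated over hydrated RNA, after loess normalization, so 0 is the typical clone of the array and not an unchanged amount. They are given for array 1 and array 2 and as the fitted mean ± the standard error (SE) of a limma model, n = 2 arrays. That error pools the spread over all 8 arrays, and the number of arrays limits the precision. A clone was called at an adjusted p under 0.05, Benjamini-Hochberg over all 768 clones. A channel was taken as well above background where the signal stood over 2 background SD above the local background.

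Array 1 was weak in its hydrated channel. There 36.6% of clones lay well above background, against 80.6% on array 2, and the treated channels held 90.4% and 83.1%. The median hydrated signal was 596 scanner units on array 1 and 1748 on array 2. Between the arrays, log2 ratios had a correlation of r = 0.78 over the 768 clones, which share both arrays and are no independent replicates. That correlation was 0.94 over the 273 clones well above background in all 4 channels, and 0.59 over the 146 clones whose hydrated channel reached it on no array. Of the 84 clones whose arrays differed by over 1 on the log2 scale, 7 were well above background in both hydrated channels. A fold of a clone not well above background in either hydrated channel is therefore given, where the rule yields one, as a lower bound on the mean fold. The bound divides the treated level by the clone's own hydrated level or, where that is lower, by the dimmest hydrated level well above background on the array. It holds for the mean of the 2 arrays under the main background correction only. A single array or another background setting can give a smaller fold. For catalase, ERD4, aat1, USD-255 and USD-135 the clone's own level was the higher one on both arrays, so the rule yields no bound below the fitted fold. For them the fitted fold is given, which rests on a dim hydrated signal and is not a minimum.

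**Figure D1:**
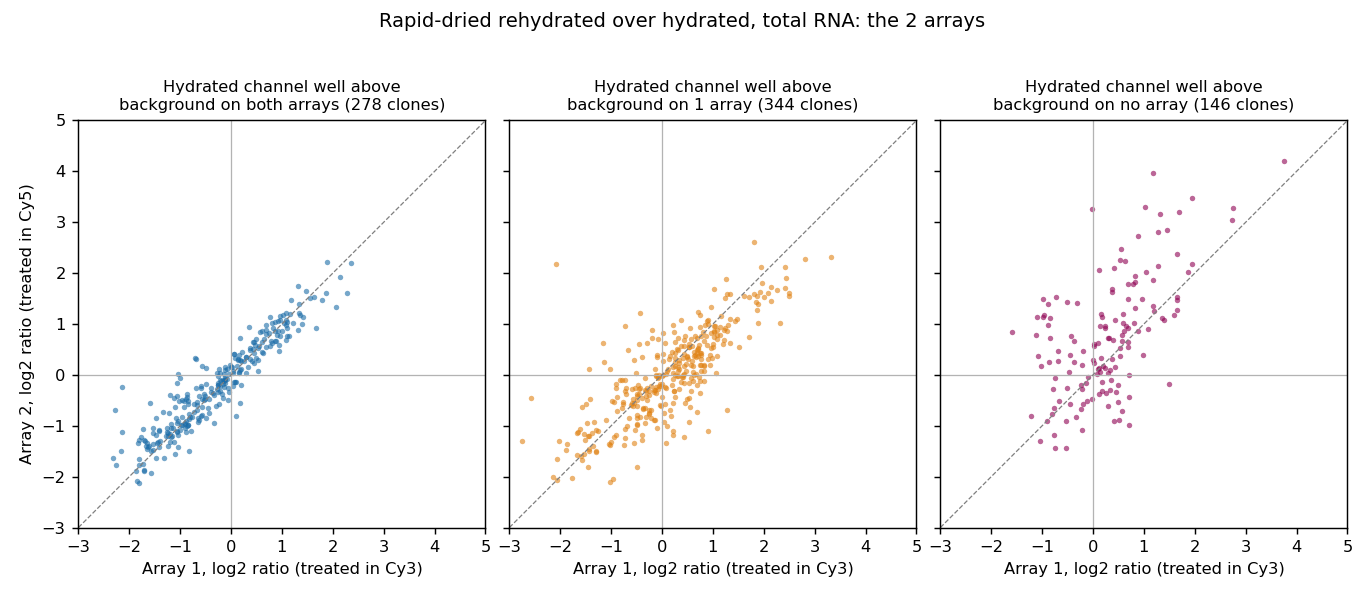
Log2 ratio (typical clone at 0) of rapid-dried rehydrated over hydrated total RNA on array 1 (x axis) and array 2 (y axis), 1 point a clone, split by the number of arrays on which the hydrated channel lay well above background. The 278 clones of the left panel lie near the dashed line of equal ratios (r = 0.94), and the 146 clones of the right panel scatter widely around it (r = 0.59).

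After rapid drying and 2 h of rehydration, 223 clones were called higher than the typical clone (29.0%) and 212 lower (27.6%). Of these 435 clones, 434 moved the same way on both arrays, which the call itself nearly requires. Of all 768 clones 638 did so. The 39 annotated clones among the rises were led by the succinate dehydrogenase flavoprotein, catalase, senescence-associated protein 12, an abscisic acid-responsive protein and a MAP kinase activating protein, each at least 3-fold above the typical clone. The 83 annotated clones among the falls were led by a cyclohexanone monooxygenase, the glutamate synthase GLU2 and ribosomal protein S3. Unannotated clones made up 184 of the rises. With array 1 left out the counts were 167 higher and 155 lower, and with array 2 left out 181 and 176. Fitted on the 2 arrays alone they were 123 and 119.

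The falls depend on what is set at 0. The 4 ribosomal protein clones that serve as controls (L17, S14, S16 and S3), described in the labels as unaffected by desiccation, averaged -1.43 on array 1 and -0.96 on array 2. On a scale that sets their mean to 0 (the control scale) the median clone stood at 1.21, 565 clones were called higher (73.6%) and 11 lower (1.43%). The controls themselves were not alike, with control-scale means of 0.49 for L17, 0.39 for S16, -0.065 for S14 and -0.81 for S3. Using the dye swap alone, with no centring, the median clone stood at 1.56, with 606 called higher and 3 lower. In the authors' deposited table it stood at 1.84 on the log2 scale, with 536 called higher and 1 lower in the same model.

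All 223 rises were called higher on each of these 4 scales, again 29.0% of clones. The other scales place the typical clone well above 0 and could hardly undo a rise, so this count is no separate support. Only 1 fall was called lower on each of the 4 scales, GLU2 (0.13%). Of the falls, 24 lay below 0 on each, 14 of them annotated. Of the 212 falls, 11 were called lower on the control scale, 179 were not called and 22 were called higher. "Rose" and "fell" below therefore mean relative to the typical clone, and the control-scale value is given with each fall. The counts of each gene group stand beside these shares of all clones, 29.0% higher and 27.6% lower. The groups hold annotated clones only, and of the 207 annotated clones 18.8% were called higher and 40.1% lower. A group near those shares does not stand apart from annotated clones in general.

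**Figure D2:**
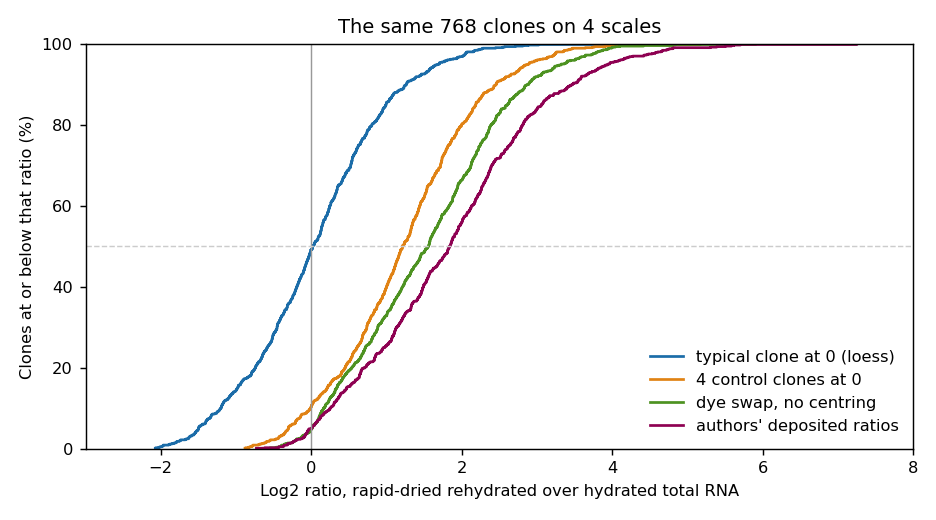
Cumulative share of the 768 clones (y axis, percent) against the log2 ratio of rapid-dried rehydrated over hydrated total RNA (x axis) on 4 scales, 1 line each. The curves have medians of 0.020 with the typical clone at 0, 1.21 with the 4 control clones at 0, 1.56 by the dye swap with no centring and 1.84 in the authors' deposited ratios.

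The largest rise of an annotated clone was in respiration. The flavoprotein subunit of succinate dehydrogenase (USD-421), which oxidizes succinate in the citric acid cycle and the respiratory chain, gave log2 ratios of 2.43 and 1.91. Behind them stood net intensities of 6457 (treated) and 162 (hydrated) on array 1 and of 11150.0 and 1115 on array 2, in scanner units that are not comparable between dyes. Both arrays lay far above 0, and the fitted rise was 2.17 ± 0.16, 4.5-fold (adjusted p = 0.000324). Of the other 7 clones of the respiration and mitochondria list, a mitochondrial aldehyde dehydrogenase rose (0.54 ± 0.15). A mitochondrial processing peptidase-like clone (USD-705), a grim19-like protein of complex I (USD-160) and a voltage-dependent anion channel of the outer membrane (USD-519) fell. Their values were -1.16 ± 0.14, -1.05 ± 0.15 and -0.51 ± 0.16, and 0.032, 0.15 and 0.68 on the control scale. Subunits of 2-oxoisovalerate dehydrogenase (USD-54, 0.19 ± 0.17) and 2-oxoglutarate dehydrogenase (USD-353, -0.47 ± 0.22) and a tryptophan-rich sensory protein (USD-712, -0.58 ± 0.31) were not called. The list as a whole had 2 rises and 3 falls of 8 clones and a median of -0.49, beside 0.020 over all clones. Without array 1 the aldehyde dehydrogenase (0.41) and the anion channel (-0.53) were no longer called, the channel also not without array 2 (-0.49).

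Both trehalase clones rose. Trehalase splits the disaccharide trehalose into glucose. The clone USD-578 gave 2.32 and 1.01, a fitted 1.67 ± 0.32 or 3.18-fold (adjusted p = 0.00455), and USD-539 gave 1.01 and 0.87, a fitted 0.94 ± 0.14 or 1.92-fold. The arrays differed by over 1 for USD-578, which stood at 0.88 without array 1 (adjusted p = 0.0486). Of 3 clones of glyceraldehyde-3-phosphate dehydrogenase, the glycolytic enzyme that makes NADH, USD-566 was at least 1.72-fold higher (0.69 and 1.78 on the arrays), USD-462 rose by 0.52 ± 0.15, and the one annotated as cytosolic stood at 0.38 ± 0.30 and was not called. Neither of the 2 rises of that enzyme was called without array 2 (USD-566 at 0.65, USD-462 at 0.34). DPE2, which handles the maltose from starch breakdown, stood at 0.42 ± 0.18 and was not called.

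The 2 falls of the sugar list were glucose-6-phosphate dehydrogenase (USD-129), which opens the oxidative pentose phosphate pathway, and galactose-1-phosphate uridylyltransferase (USD-415), of galactose breakdown. Glucose-6-phosphate dehydrogenase gave -1.58 and -1.93, a fitted -1.76 ± 0.15 and -0.56 on the control scale. The uridylyltransferase, whose hydrated channel was not well above background on either array, gave -1.17 ± 0.15 and 0.023 on the control scale. In all, 4 of 8 sugar clones rose and 2 fell, with a median of 0.47.

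**Figure D3:**
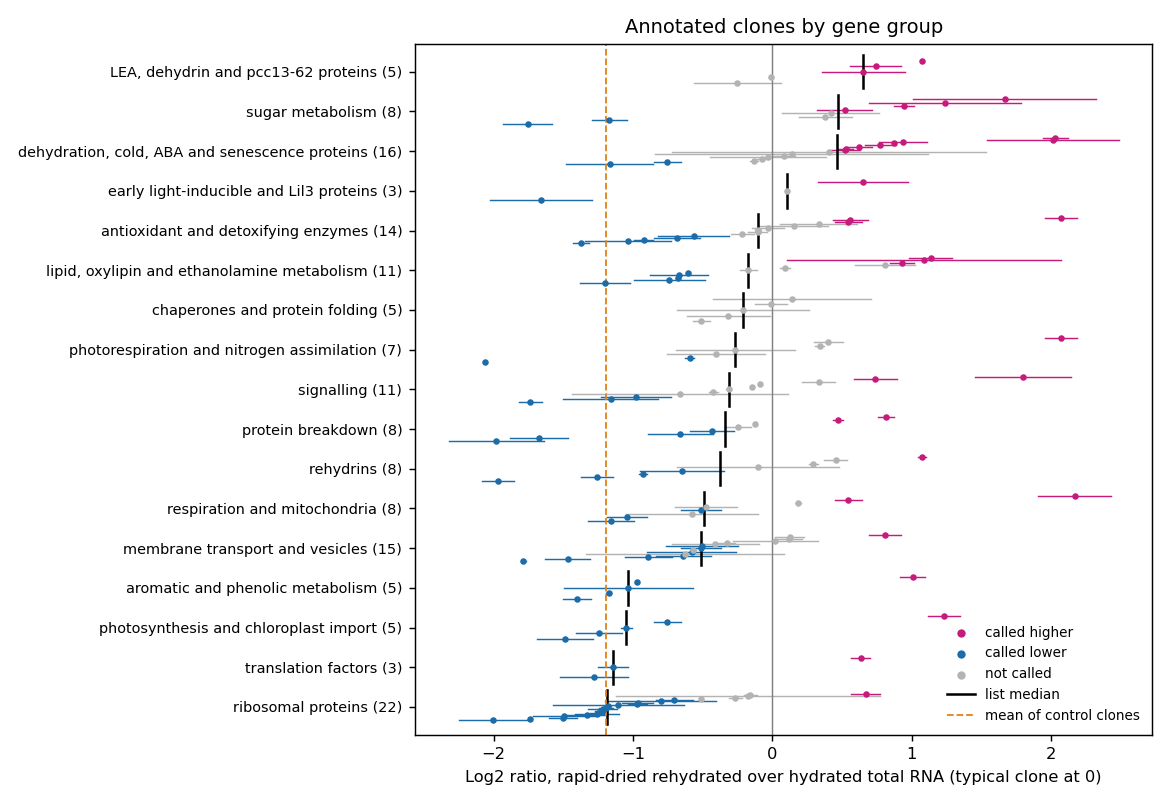
Fitted log2 ratio (x axis, typical clone at 0) of each annotated clone in 17 gene groups (y axis, number of clones in brackets), with a line joining the values of the 2 arrays. The medians of sugar metabolism (0.47) and LEA proteins (0.65) lie right of 0 with members on both sides of it, and the median of ribosomal proteins (-1.19) lies at the dashed mean of the 4 control clones (-1.19), which belong to that group.

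Catalase (USD-265), the peroxisomal enzyme that breaks down hydrogen peroxide, was the second largest annotated rise. Its log2 ratios were 1.95 and 2.18 (adjusted p = 0.000324), with net treated intensities of 4484 on array 1 and 4011 on array 2 against hydrated values of 131 and 444. The fitted rise was 4.19-fold. The hydrated signal was not well above background on either array, so this fold rests on a dim signal and is not a minimum. The photorespiratory and nitrogen enzymes that follow were not called higher. Glycolate oxidase (USD-422), which makes hydrogen peroxide in photorespiration, stood at -0.27 ± 0.32, and its arrays, 0.16 and -0.69, lay on either side of 0. Glutamine synthetase (USD-382) stood at -0.40 ± 0.20, and alanine aminotransferase (USD-679) at 0.34 ± 0.16, neither called.

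GLU2 (USD-11), the ferredoxin-dependent glutamate synthase that takes up ammonia released in photorespiration, had log2 ratios of -2.07 and -2.06, the 2 arrays being almost equal. The fitted value was -2.06 ± 0.18, 4.18-fold below the typical clone (adjusted p = 0.000324). Both channels were well above background on array 2 and neither was on array 1. With the background subtracted in place of normexp the value was -2.82, a fold over 1.5 times as large. It stood at -0.87 on the control scale (adjusted p = 0.00954), -0.64 by the dye swap and -0.73 in the authors' deposited table. Of the 2 clones of glutamate decarboxylase, which makes gamma-aminobutyric acid, USD-216 fell (-0.59 ± 0.16, 0.60 on the control scale) and USD-735 was not called (0.40 ± 0.21). The fall of USD-216 was not called with either array left out (-0.59 and -0.60).

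Of 14 antioxidant and detoxifying enzymes 3 rose and 5 fell, with a median of -0.11. Besides catalase and the mitochondrial aldehyde dehydrogenase, 1 of 2 dehydroascorbate reductase clones rose. Dehydroascorbate reductase regenerates ascorbate, and its clones stood at 0.56 ± 0.16 (USD-202) and -0.11 ± 0.19 (USD-154, not called). The falls comprised 2 glyoxalase-type clones, of the pathway that removes methylglyoxal, a microsomal glutathione S-transferase 3, Aldh21A1 and the stromal ascorbate peroxidase. The lactoylglutathione lyase (USD-190) gave -1.43 and -1.32 and a fitted -1.37 ± 0.27, and the glyoxalase-bleomycin resistance protein (USD-104) gave -0.92 ± 0.15. They stood at -0.18 and 0.27 on the control scale. The glutathione S-transferase (USD-460) stood at -1.03 ± 0.16 and 0.16 on the control scale. Aldh21A1 (USD-30), an aldehyde dehydrogenase first described from this moss, stood at -0.68 ± 0.14 with array values of -0.85 and -0.52, and at 0.51 on the control scale. Ascorbate peroxidase (USD-167), which uses ascorbate to remove hydrogen peroxide in the chloroplast, stood at -0.56 ± 0.18 and 0.63. Without array 1, USD-30 (-0.56) and USD-202 (0.57) were not called, and without array 2, USD-167 (-0.29) and USD-202 (0.54) were not.

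Transcripts of the photosynthetic apparatus were present in both states. The light-harvesting chlorophyll a/b-binding protein, photosystem I subunit III and carbonic anhydrase were well above background in all 4 channels. The labels name the tissue as gametophyte, the leafy moss plant. Each of them fell below the typical clone. Chloroplast carbonic anhydrase (USD-156), which interconverts carbon dioxide and bicarbonate, had log2 ratios of -1.69 and -1.29 and a fitted -1.49 ± 0.18 (adjusted p = 0.000721). The light-harvesting protein (USD-180) had -1.41 and -1.08 and a fitted -1.24 ± 0.39 (adjusted p = 0.0301). Photosystem I subunit III (USD-591), where plastocyanin docks, had -1.01 and -1.09 and a fitted -1.05 ± 0.21. Their control-scale values were -0.30, -0.052 and 0.14, near the ribosomal protein clones. The stay-green protein (USD-599), which acts in chlorophyll breakdown, fell to -0.75 ± 0.16 and stood at 0.44 on the control scale. Toc125 (USD-548), of the envelope machinery that imports proteins, was the exception, at least 1.78-fold higher with array values of 1.35 and 1.11. Of the 5 clones 4 fell, with a median of -1.05. Without array 1, Toc125 (0.74) and the light-harvesting protein (-0.85) were not called, and without array 2 the stay-green protein (-0.59) was not.

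The early light-inducible proteins, which bind pigment in thylakoids under stress, gave a small rise and a value near 0. ELIPA (USD-274) rose by 0.65 ± 0.18, its arrays standing at 0.98 and 0.33, and was not called without array 1 (0.28). ELIPb (USD-305) stood at 0.11 ± 0.31 and was not called. The related Lil3 protein (USD-378), known in chlorophyll synthesis in flowering plants, had -2.03 and -1.30 and a fitted -1.66 ± 0.20, with -0.47 on the control scale.

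LEA and desiccation proteins rose in part, 3 of 5 with none lower and a median of 0.65. LEA proteins are hydrophilic proteins that accumulate in drying cells. The LEA clone USD-161 gave 1.07 and 1.07, 2.1-fold above the typical clone (adjusted p = 0.00188). A further LEA clone (USD-165) rose by 0.74 ± 0.17 and the dehydrin LTI30/XERO2 (USD-107) by 0.65 ± 0.18. The last LEA clone (USD-397, -0.012 ± 0.14) and the desiccation-related protein pcc13-62 (USD-468, -0.25 ± 0.18) were not called. All 5 were called higher on the control scale. Without array 2, USD-165 (0.62) and USD-107 (0.51) lost their call, and USD-107 also without array 1 (0.80).

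The 8 rehydrin clones did not move together. USD-231, annotated as rehydrin Tr-288, rose by 1.08 ± 0.15 (1.10 and 1.05), 2.11-fold. The clone printed as Tr-288 itself gave 0.26 and 0.33 and a fitted 0.29 ± 0.26 that was not called. The design text lists 3 of them as up-regulated controls on the strength of earlier northern blots under conditions it does not give. None of these was called higher than the typical clone, which is not an unchanged amount, so a rise over hydrated tissue is not excluded. The authors' deposited ratios on arrays 1 and 2 were 3.27 and 2.90 for Tr-155 and 7.975 and 3.62 for Tr-288. They were 4.04 and 1.14 for Tr-403 and 1.02 and 0.687 for Tr-421. Relative to the typical clone Tr-155 stood at 0.46 ± 0.18 (adjusted p = 0.0634). Tr-403 stood at -0.10 ± 0.25, its arrays giving -0.69 and 0.48, and was well above background in no channel. Tr-421 fell by the most of the 8, with -1.85 and -2.09 on the arrays and a fitted -1.97 ± 0.14 (adjusted p = 0.000324). It was well above background in all 4 channels, and on the control scale it was lower as well (-0.78, adjusted p = 0.0144).

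The clones added as down-regulated controls fell relative to the typical clone. Tr-217 stood at -0.93 ± 0.18 and Tr-416 at -1.26 ± 0.18, with 0.27 and -0.067 on the control scale. The calmodulin-like domain protein kinase Tr-cpk, added as a neutral control, stood at -0.98 ± 0.16 (0.21 on the control scale). Tr-418 stood at -0.65 ± 0.16 and 0.55, and was not called without array 2 (-0.42). The authors' deposited ratios on arrays 1 and 2 were 1.16 and 0.971 for Tr-217 and 1.89 and 1.33 for Tr-416. For Tr-cpk they disagreed, at 38.5 and 0.962. Altogether 1 of 8 rehydrin clones rose and 4 fell, with a median of -0.38, and on the control scale 4 were higher and 1 lower.

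Clones annotated to dehydration, cold, abscisic acid (ABA) or senescence rose in 8 of 16 cases and fell in 2, with a median of 0.46. ABA is the hormone that signals water deficit in land plants. Senescence-associated protein 12 (USD-38) gave 1.94 and 2.12, a fitted 2.03 ± 0.40 or 4.09-fold (adjusted p = 0.00473). A putative ABA-responsive protein related to the FH-interacting protein fip1 (USD-454) gave 2.49 and 1.54, a fitted 2.01 ± 0.32 or 4.04-fold (adjusted p = 0.00199). A further clone of that annotation (USD-405) rose by 0.62 ± 0.15, as did a FIP1 clone (USD-559, 0.52 ± 0.13) and a GRAM domain ABA-responsive protein (USD-411, 0.53 ± 0.14), the last 2 singled out after their values were seen. The low temperature-induced protein (USD-693) rose by 0.94 ± 0.18. The dehydrin bdn1 (USD-21) rose by 0.77 ± 0.19. ERD4 (USD-514), induced early in dehydration in Arabidopsis, gave 0.88 and 0.86 on the arrays, a fitted 1.83-fold. Its hydrated channel was not well above background on either array. For another clone annotated as ERD4 (USD-81) the arrays disagreed, with deposited ratios of 44.1 on array 1 and 0.787 on array 2. The phosphatidylethanolamine-binding clone (USD-141) fell to -1.17 ± 0.16 and stood at 0.024 on the control scale. Both clones of an AWPM-19-like membrane protein lay near 0 (0.083 ± 0.14 for USD-114 and -0.13 ± 0.14 for USD-113).

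Without array 1 USD-454 stood at 1.38. Several of the smaller rises rested on both arrays together. Without array 1, USD-405 (0.66), USD-559 (0.51), USD-411 (0.55), USD-693 (0.67) and USD-21 (0.49) were not called. Without array 2, USD-405 (0.58), USD-559 (0.53) and USD-411 (0.50) were not called.

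Most ribosomal protein clones fell, 17 of 22 with 1 rise and a median of -1.19. Without the 4 control clones the count was 13 of 18. Ribosomal protein S3, a control clone, gave -2.25 and -1.76 and a fitted -2.01 ± 0.19 (adjusted p = 0.000374), and L18 (USD-547) gave -1.73 and -1.75 and -1.74 ± 0.15. L37 (USD-219) stood at -1.50 ± 0.17, L34e (USD-139) at -1.49 ± 0.16, L30 (USD-182) at -1.25 ± 0.18 and L1 (USD-309) at -1.23 ± 0.15. The control clones S14, S16 and L17 stood at -1.26 ± 0.19, -0.80 ± 0.28 and -0.70 ± 0.15. S16 was the control on which the arrays differed most, with -1.20 and -0.40, and it was not called without array 1 (-0.23), nor was L17 (-0.55). On the control scale the median of the 22 clones was 0.0071, with 5 higher and 1 lower (S3), so the group moved with the clones that define that scale.

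Ribosomal protein L5 (USD-213) was the exception, singled out after its value was seen, with 0.77 and 0.56 on the arrays and a fitted rise of 0.67 ± 0.14. It was not called without array 1 (0.55), and with median centring in place of loess it stood at -0.10. The 2 clones of L38 stood apart, USD-47 at -1.33 ± 0.17 and USD-194 at -0.17 ± 0.30, the latter well above background in no channel. Elongation factors, which carry the ribosome along the message, split. Elongation factor 2 (USD-356) rose by 0.63 ± 0.20, a rise not called with either array left out (0.67 and 0.60). Elongation factor 1-alpha (USD-189) fell to -1.14 ± 0.14 and an eIF4-gamma domain protein (USD-379) to -1.28 ± 0.18, at 0.048 and -0.088 on the control scale.

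No chaperone was called in limma's test, and of the 5 clones none had an unadjusted p under 0.05. Heat shock cognate Hsp70 (USD-511), which assists protein folding, stood at -0.0094 ± 0.18 with -0.12 and 0.10 on the arrays, and was well above background in all 4 channels. Hsp90 (USD-414) stood at -0.51 ± 0.28, the endoplasmic reticulum chaperone BiP 3 (USD-728) at 0.14 ± 0.31, the peptidylprolyl isomerase rof1 (USD-630) at -0.32 ± 0.20 and a Clp protease regulator (USD-261) at -0.21 ± 0.26. The hydrated channel of Hsp90, BiP 3 and the Clp regulator was not well above background on either array. Of the 5, 4 were called higher on the control scale.

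Among clones of protein breakdown, 4 of 8 fell and 2 rose. The vacuolar aspartic proteinase (USD-496) gave -2.32 and -1.64 and a fitted -1.98 ± 0.20 (adjusted p = 0.000462), and was lower on the control scale too (-0.79). The 20S proteasome subunit alpha 6 (USD-49), part of the core particle that degrades tagged proteins, gave -1.88 and -1.47 and a fitted -1.67 ± 0.15, with -0.48 on the control scale. A serine carboxypeptidase (USD-186) stood at -0.66 ± 0.17 and a RING finger protein (USD-218) at -0.43 ± 0.16, or 0.53 and 0.76 on the control scale. Clones listed only as proteases rose, USD-369 by 0.81 ± 0.14 and USD-279 by 0.47 ± 0.15. The protease inhibitor cystatin (USD-191, -0.12 ± 0.16) and a prolyl endopeptidase (USD-573, -0.25 ± 0.26) were not called. Without array 1, USD-186 (-0.56), USD-218 (-0.28) and USD-279 (0.64) were not called, and USD-218 (-0.59) and USD-279 (0.31) not without array 2.

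In signalling, 2 of 11 clones rose (18.2%, beside 29.0% of all clones) and 3 fell (27.3%, near the 27.6% of all clones). The MAP kinase activating protein (USD-469) gave 2.14 and 1.46, a fitted 1.80 ± 0.18 or 3.48-fold (adjusted p = 0.000402). The protein phosphatase 2C (USD-542), of a family that includes brakes on ABA signalling, rose by 0.74 ± 0.14. The MAP kinase NRK1 (USD-269, 0.33 ± 0.14), a serine/threonine kinase (USD-233, -0.67 ± 0.31) and a phosphatase-like protein (USD-229, -0.43 ± 0.45) were not called. SnRK1-interacting protein 1 (USD-543), named for the energy-sensing kinase SnRK1, fell with -1.82 and -1.66 on the arrays to a fitted -1.74 ± 0.16, and a mob1/phocein protein (USD-133) to -1.16 ± 0.19. Their control-scale values were -0.54 and 0.031.

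Carriers and vesicle proteins fell in 7 of 15 cases and rose in 1, with a median of -0.51. Of 2 clones annotated as ABC transporter, which moves solutes at the cost of ATP, USD-745 gave -1.80 and -1.77 and a fitted -1.79 ± 0.15, and USD-400 stood at 0.12 ± 0.16 and was not called. An inorganic phosphate transporter (USD-649) fell to -1.47 ± 0.17, the vesicle protein VAMP714 (USD-109) to -0.89 ± 0.20 and the tonoplast sugar carrier TMT2 (USD-448) to -0.51 ± 0.15. The metal carrier of the YSL family (USD-433, -0.64 ± 0.23) and a BRO-1 domain protein of endosomes (USD-235, -0.58 ± 0.17) fell as well. On the control scale USD-745 and USD-649 stood at -0.59 and -0.28, and USD-109, USD-448, USD-433 and USD-235 above 0 at 0.30, 0.69, 0.55 and 0.61. The amino acid carrier aat1 (USD-158) gave 0.69 and 0.92 on the arrays, a fitted 1.75-fold. Its hydrated channel was not well above background on either array. Without array 2, USD-109 (-0.65), USD-448 (-0.29) and USD-433 (-0.16) were not called, and without array 1 USD-235 (-0.27) was not.

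Lipid enzymes rose in 3 of 11 cases (27.3%, near the 29.0% of all clones) and fell in 5. The reductase OPR2 (USD-637), of the oxylipin pathway, gave 1.29 and 0.98, a fitted 1.14 ± 0.15 or 2.2-fold. Lipoxygenase-1 (USD-711), which oxidizes polyunsaturated fatty acids at the head of that pathway, gave -1.02 and -1.38 and fell to -1.20 ± 0.14, or -0.0069 on the control scale. A serine decarboxylase (USD-329), which makes ethanolamine in Arabidopsis, rose by 0.93 ± 0.17. A putative ethanolamine or choline kinase (USD-354) was called at 1.09 ± 0.28, but its arrays gave 0.11 and 2.07 and neither channel was well above background on either array, so no fold is given. It was not called without array 2 (0.37). An enoyl-hydratase (USD-622), a phosphate acyltransferase-like protein (USD-67), a soluble epoxide hydrolase (USD-766) and phospholipase D delta (USD-48) fell to -0.74 ± 0.15, -0.68 ± 0.14, -0.67 ± 0.16 and -0.60 ± 0.19. All 4 lay above 0 on the control scale, between 0.45 and 0.59. Without array 1, USD-67 (-0.60), USD-766 (-0.43) and USD-48 (-0.59) were not called, and without array 2, USD-622 (-0.54) and USD-48 (-0.61) were not.

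Of 5 enzymes of aromatic and phenolic metabolism 4 fell, with a median of -1.03. Phenylalanine ammonia-lyase (USD-491), the entry to phenolic compounds, gave -1.30 and -1.51 and a fitted -1.40 ± 0.18. Chalcone synthase (USD-685), the entry to flavonoids, gave -1.18 ± 0.14. Both clones of 3-deoxy-D-arabino-heptulosonate 7-phosphate synthase, the first step of the shikimate pathway, fell, USD-565 to -0.97 ± 0.14 and USD-528 to -1.03 ± 0.25. The exception was 4-hydroxyphenylpyruvate dioxygenase (USD-100), of tyrosine breakdown and of tocopherol and plastoquinone synthesis, which rose by 1.01 ± 0.15 (1.09 and 0.92), 2.01-fold. The falls stood on the control scale at -0.21, 0.017, 0.22 and 0.16. USD-528 was not called without array 1 (-0.43).

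Outside these lists, the cyclohexanone monooxygenase-like clone USD-224 was the annotated clone that fell most. It gave -2.14 and -2.00 and a fitted -2.07 ± 0.15, 4.21-fold below the typical clone (adjusted p = 0.000324), and was lower on the control scale (-0.88, adjusted p = 0.00603). A hypothetical protein of the endonuclease/exonuclease family (USD-119) gave -1.82 and -2.12 and a fitted -1.97 ± 0.17, or -0.78 on the control scale (adjusted p = 0.0155). A peroxisomal membrane protein of 22 kDa (USD-205) fell to -1.63 ± 0.25, with arrays at -2.14 and -1.13, and stood at -0.44 on the control scale and at -1.04 without array 1.

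Of the 24 clones that rose by over 2 on the log2 scale, 20 carried no annotation. USD-22 gave 3.76 and 4.20 and, under the main background correction, was at least 14.3-fold higher. USD-255 gave 2.76 and 3.29, a fitted 8.13-fold, and USD-135 gave 2.73 and 3.04, a fitted 7.38-fold, neither of them a minimum. For none of the 3 did the hydrated channel of either array reach well above background. The first and the third were singled out by their size after their values were seen. The fitted value of USD-22 was 2.99 without background correction and 4.88 with the background subtracted. The first of these is a smaller fold than 14.3, so that bound does not hold across background settings. Among unannotated clones well above background in all 4 channels, USD-355 rose by 2.28 ± 0.20 (4.85-fold), USD-153 by 2.05 ± 0.18 and USD-172 by 2.04 ± 0.21. USD-118, USD-346, USD-665, USD-644 and USD-134 rose by 1.94 ± 0.21, 1.74 ± 0.19, 1.71 ± 0.23, 1.63 ± 0.19 and 1.58 ± 0.17. The largest falls of that kind were USD-195 (-1.88 ± 0.14), USD-223 (-1.83 ± 0.19), USD-72 (-1.80 ± 0.21) and USD-443 (-1.79 ± 0.15), which stood at -0.69, -0.63, -0.61 and -0.60 on the control scale. USD-331, USD-377, USD-50 and USD-221 followed at -1.56 ± 0.17, -1.55 ± 0.20, -1.55 ± 0.17 and -1.53 ± 0.15, or -0.37, -0.36, -0.35 and -0.34 on the control scale. Of the 561 unannotated clones 184 rose and 129 fell, and of the 207 annotated ones 39 rose and 83 fell.

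Clones that carry word for word the same annotation can be set beside each other within the arrays. Of 14 such annotations held by 2 or more clones (35 clones), none had clones called in opposite directions, and in 4 every clone was called the same way. Those were trehalase, glyceraldehyde-3-phosphate dehydrogenase (without the clone annotated as cytosolic), the fip1-related protein and 3-deoxy-D-arabino-heptulosonate 7-phosphate synthase. Of the 207 annotated clones 18.8% were called higher and 40.1% lower, so unrelated clones can share a call too. Unrelated pairs were not counted, and the 14 annotations do not show closer agreement than such pairs. Of the 7 clones annotated as rehydrin alone, 4 fell and none rose, while USD-231, which rose, carries a longer annotation. Both fasciclin-like clones (USD-174, 0.24 ± 0.16, and USD-446, 0.018 ± 0.19) were not called. Of 2 alpha/beta-fold hydrolases USD-117 fell (-0.60 ± 0.14, 0.59 on the control scale, and not called without array 1 at -0.48) and USD-150 was not called (-0.10 ± 0.14). Of 3 clones listed only as hypothetical protein, USD-464 rose by 1.06 ± 0.14, and USD-425 (0.24 ± 0.21) and USD-248 (0.092 ± 0.15) were not called. The clones of 1 annotation may come from different genes or from parts of 1 gene.

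Whether the ratio to hydrated tissue after rapid drying and rehydration differed from that after slow drying was tested as a contrast in the same model. It was higher for 87 clones (11.3%) and lower for 47 (6.12%). Microsomal glutathione S-transferase 3 and photosystem I subunit III lay less far below the typical clone than in slow-dried tissue. The early light-inducible protein ELIPb and glycolate oxidase lay above the typical clone in slow-dried tissue and were not called against it here. That is not an unchanged amount. Their deposited ratios to hydrated tissue on arrays 1 and 2 were 58.9 and 1.90 for ELIPb and 10.2 and 1.18 for glycolate oxidase. The hydrated RNA of both comparisons may come from shared preparations.

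ELIPb stood at 0.11 in rapid-dried rehydrated RNA and at 2.01 in slow-dried RNA, whose arrays gave 1.10 and 2.92, a difference of -1.90 ± 0.44 (adjusted p = 0.0318). Glycolate oxidase stood at -0.27 against 1.49, a difference of -1.75 ± 0.45. Dehydroascorbate reductase (USD-154), lipoxygenase-1 and spherulin-1B differed by -1.27, -1.19 and -1.27. Of unannotated clones, USD-125 and USD-74 differed by -2.35 ± 0.25 and -2.06 ± 0.21. With the background subtracted the difference of USD-74 was -4.19 and was not called. Without array 2 the differences of ELIPb (-1.56), glycolate oxidase (-1.27) and dehydroascorbate reductase (-1.07) were not called.

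In the other direction, photosystem I subunit III stood at -1.05 against -3.02 in slow-dried RNA, a difference of 1.97 ± 0.29 (adjusted p = 0.00839). The glutathione S-transferase stood at -1.03 against -3.06, a difference of 2.03 ± 0.23 (adjusted p = 0.00421). H-type thioredoxin (USD-658), a small redox protein, stood at -0.11 against -2.22, whose arrays gave -1.30 and -3.15, a difference of 2.12 ± 0.47. A 16 kDa membrane protein (USD-275) and a hypothetical protein (USD-464) differed by 2.25 ± 0.24 and 1.93 ± 0.19. The unannotated clone USD-698 was well above background in all 4 channels here and turned from -1.74 in slow-dried RNA to 1.56, a difference of 3.31 ± 0.21 (adjusted p = 0.000975). USD-762 differed by 2.86 ± 0.31. The thioredoxin difference was not called without array 2 (1.78). Beyond these, 5 of 16 dehydration, cold, ABA and senescence clones and 2 of 5 chaperones were higher than in slow-dried RNA, with none lower. So were 5 of 22 ribosomal clones, or 4 of 18 without the control clones, with none lower. Antioxidant enzymes had 2 higher and 2 lower of 14, and lipid enzymes 2 lower of 11 with none higher. The early light-inducible and Lil3 proteins had 1 lower of 3. Of all clones 11.3% were higher and 6.12% lower, and of the 207 annotated clones 31 were higher and 10 lower. On the control scale 32 clones were higher and 56 lower, and 30 of the 87 and 36 of the 47 were called there too. All 14 clones named for this contrast kept their direction on that scale.

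The same test between polysomal and total RNA of rapid-dried rehydrated plants found a higher ratio in polysomal RNA for 111 clones (14.5%) and a lower one for 119 (15.5%). Several of the leading rises of total RNA were lower in polysomal RNA. Succinate dehydrogenase stood at 2.17 in total and -0.54 in polysomal RNA, a difference of -2.71 ± 0.23 (adjusted p = 0.0022). The MAP kinase activating protein differed by -1.68 ± 0.25, the fip1-related protein USD-454 by -1.63 ± 0.46, catalase by -1.38 ± 0.23 and the hypothetical protein USD-285 by -1.37 ± 0.22. Of unannotated clones, USD-255 differed by -3.50 ± 0.23 and USD-237 by -3.19 ± 0.45. The difference of USD-454 was not called without array 1 (-0.99), and without slide 85, of polysomal RNA, neither it (-1.41) nor those of catalase (-1.25) and USD-285 (-1.40) were.

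Higher in polysomal than in total RNA were several of the clones that fell in total RNA. GLU2 stood at -2.06 in total and -0.27 in polysomal RNA, a difference of 1.80 ± 0.25 (adjusted p = 0.00469). The L38 clone USD-47 stood at -1.33 against 0.74, a difference of 2.07 ± 0.25. Polyamine oxidase (USD-110), which breaks down polyamines, differed by 1.72 ± 0.45, an oligopeptide transporter-like protein (USD-408) by 1.76 ± 0.38 and the endonuclease-like USD-119 by 2.45 ± 0.24. The unannotated USD-184 and USD-90 differed by 2.93 ± 0.39 and 2.35 ± 0.32. Polyamine oxidase and USD-408 were not called without array 1 (1.28 and 1.54) or without slide 85 (1.65 and 1.48).

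Of the 119 clones lower in polysomal RNA, 97 were rises of total RNA, and of the 111 higher ones 82 were falls of total RNA. Both contrasts contain the total RNA values, so these counts do not show that the fractions oppose each other. By group, 7 of 22 ribosomal clones were higher in polysomal RNA and 1 lower, and 6 of 15 carriers and vesicle proteins were higher and 1 lower. Of all clones 14.5% were higher and 15.5% lower, and of the 207 annotated clones 44 were higher and 22 lower. Both groups were low in total RNA, so the shared values enter their counts too. Without slide 85, a polysomal array whose title names slow drying while its source name gives rapid drying and rehydration, 16 clones were higher and 26 lower. With all arrays kept, 39 were higher and 103 lower on the control scale, and 5 and 619 by the dye swap. In the authors' deposited ratios limma called no clone in either contrast, while 153 clones against slow-dried RNA and 225 against polysomal RNA had an unadjusted p under 0.05.

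**Figure D4:**
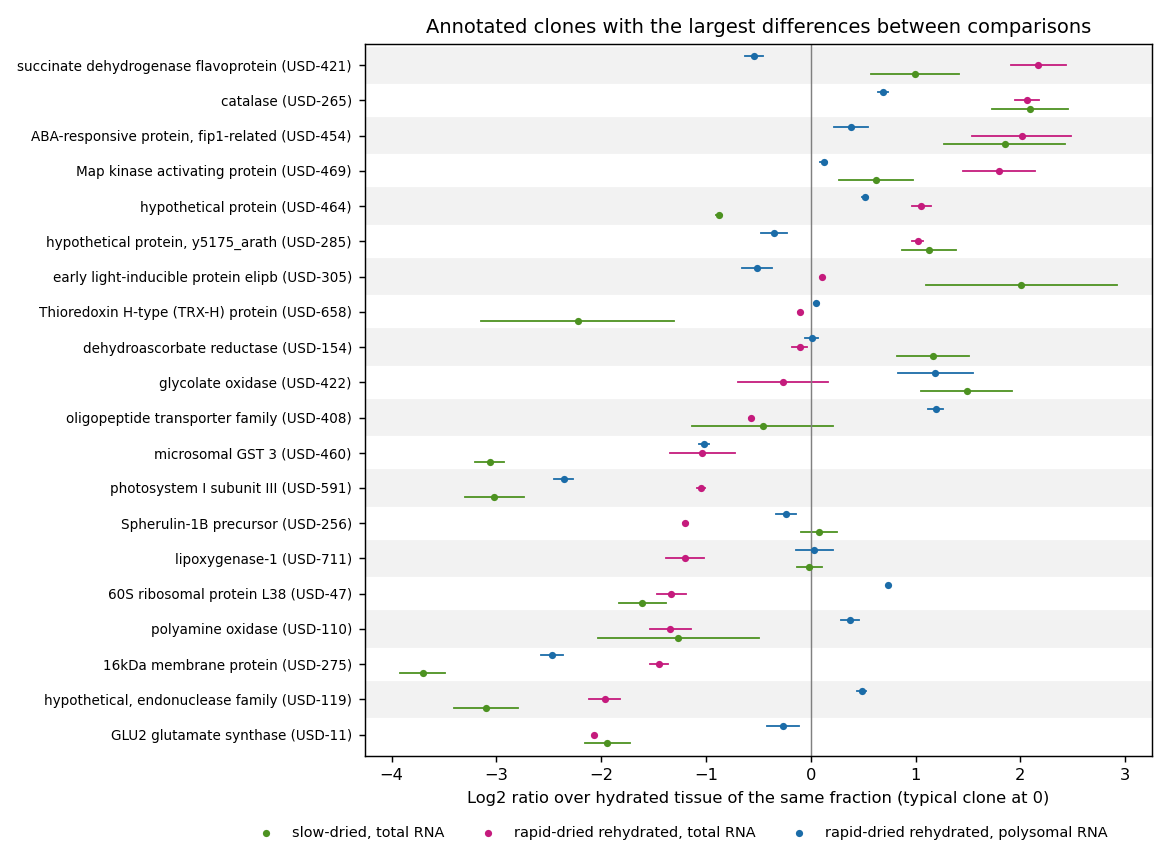
Fitted log2 ratio over hydrated tissue (x axis, typical clone at 0) of the 20 annotated clones named for the 2 contrasts (y axis), in slow-dried total RNA, rapid-dried rehydrated total RNA and rapid-dried rehydrated polysomal RNA, with a line joining the 2 arrays of each. Succinate dehydrogenase stands at 2.17 in rapid-dried rehydrated total RNA and at -0.54 in its polysomal RNA, and ELIPb stands at 2.01 in slow-dried and 0.11 in rapid-dried rehydrated total RNA.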

How the data were processed

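Scanner files of 8 arrays were read, with results given for the 2 arrays of rapid-dried rehydrated total RNA. Per the file headers these hold the intensity of each spot and of its local background, as deposited without normalization. Another column that the authors deposited is a spot flag, whose meaning is, like the scanner, not given in the sources consulted. Separately the authors deposited a ratio of treated to hydrated RNA for each clone on each array. These ratios came back within 0.01 on the log2 scale for 688 of 706 clones on array 1 and 760 of 760 on array 2. The recipe was the mean over unflagged spots of median signal minus median background, treated over hydrated. A free constant was fitted for each array, so the matches do not test how the ratios were scaled. In the deposited ratios the median of the control clones was 1 on array 1 and on array 2.

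Here intensities were corrected by normexp (offset 50), turned into log2 ratios, normalized by global loess (span 0.3, 4 iterations) and averaged over 3 spots. limma 3.58.1 (R 4.3.3) was fitted over all 8 arrays with 1 coefficient per treatment and fraction and a dye term (3 residual degrees of freedom, 6.80 after moderation), two-sided, Benjamini-Hochberg over 768 clones. P-values measure only the spread between these samples. Contrasts gave the differences between comparisons. The procedure was tested on simulated data. Channel levels after loess and Aquantile gave the lower bounds, as the mean treated level over, per array, the higher of the clone's own hydrated level and the dimmest hydrated level well above background.

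Members and gene lists, which are search patterns on annotations, were chosen with earlier results of these data known. Clones were named by rule: up to 8 members of each list, the largest annotated and unannotated changes called and alike in sign on both arrays, the controls, repeated annotations and the largest contrasts. Alternatives covered background correction, normalization, scale, spots, dim clones, the dye term and arrays left out. The design text names other ribosomal controls (S14, S16, L23, L15) than the labels and files (L17, S14, S16, S3). Array replicates were numbered by dye and pair no samples.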

Additional observations from a re-analysis of the deposited data

Results flagged for a closer look

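The values below are differences of log2 ratios (typical clone at 0) by a contrast of the limma model, each past an adjusted p of 0.05, so that the comparison with hydrated tissue itself differed between 2 groups. They are the clones with the largest such differences.

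Against slow-dried total RNA, rapid-dried rehydrated total RNA was higher by 2.25 for a 16 kDa membrane protein (USD-275), 2.12 for H-type thioredoxin (USD-658), 2.03 for microsomal glutathione S-transferase 3 (USD-460), 1.97 for photosystem I subunit III (USD-591) and 1.93 for a hypothetical protein (USD-464). The unannotated clones USD-698 and USD-762 were higher by 3.31 and 2.86. Differences in the other direction were -1.90 for ELIPb (USD-305), -1.75 for glycolate oxidase (USD-422), -1.27 for spherulin-1B (USD-256), -1.27 for dehydroascorbate reductase (USD-154) and -1.19 for lipoxygenase-1 (USD-711). The unannotated clones USD-125 and USD-74 gave -2.35 and -2.06.

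Against total RNA, polysomal RNA of rapid-dried rehydrated plants was higher by 2.45 for an endonuclease-like hypothetical protein (USD-119), 2.07 for ribosomal protein L38 (USD-47), 1.80 for GLU2 (USD-11), 1.76 for an oligopeptide transporter-like protein (USD-408) and 1.72 for polyamine oxidase (USD-110). The unannotated clones USD-184 and USD-90 were higher by 2.93 and 2.35. Differences in the other direction were -2.71 for succinate dehydrogenase (USD-421), -1.68 for the MAP kinase activating protein (USD-469), -1.63 for the fip1-related protein (USD-454), -1.38 for catalase (USD-265) and -1.37 for a hypothetical protein (USD-285). The unannotated clones USD-255 and USD-237 gave -3.50 and -3.19.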

How the results depend on the processing

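With array 1 or array 2 left out, the counts of calls ranged from 167 to 181 higher and 155 to 176 lower for rapid-dried rehydrated over hydrated total RNA, from 68 to 71 higher and 45 to 50 lower against slow-dried total RNA, and from 68 to 101 higher and 101 to 105 lower for polysomal against total RNA. For the comparison with hydrated tissue (223 higher, 212 lower), the control scale gave 565 and 11, the dye swap 606 and 3, the authors' ratios 536 and 1, the 2 arrays alone 123 and 119, and leaving out dim clones 69 and 114 of 273. Against slow-dried RNA (87 and 47) these gave 32 and 56, 175 and 42, 0 and 0, and for dim clones left out 39 and 12 of 264, with 83 lower under median centring. For polysomal against total RNA (111 and 119) they gave 39 and 103, 5 and 619, 0 and 0, and 44 and 43 of 266, with 16 and 26 without slide 85. The 0 counts are limma's, with 153 and 225 clones at an unadjusted p under 0.05. Background subtraction, no background correction, block loess, the median of spots, no dye term and flagged spots left out (the last chosen after seeing the data) kept every count they were run for within 1.5 times. The cause of the other shifts was not tested, save that fewer arrays entered the fits on 2 arrays or without slide 85, and fewer clones that without dim clones.

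None of the called clones that are named turned its sign against hydrated tissue without array 1, array 2 or slide 85, on the 2 arrays alone, or under the background, block and spot settings. The 28 named differences between comparisons kept their sign under every alternative run for them. Of the values of named clones and differences, 18 of 189 lost their call with the background subtracted, 7 of 161 without background correction, 17 of 189 with median centring (17 gained one), 7 of 161 with block loess, 6 of 161 with the median of spots, 16 of 175 without slide 85 and 43 of 161 on the 2 arrays alone. Called values that moved by over 1.5 times as a fold under median centring were L17 (-1.45), USD-180 (-1.96), USD-591 (-1.77) and USD-354 (0.32, no longer called), and the differences from slow-dried RNA of USD-275 (1.49), USD-591 (1.35), USD-762 (2.14) and USD-74 (-2.82). With flagged spots left out USD-235 gave -1.17 and the difference of USD-74 -3.09, and with the background subtracted the polysomal difference of GLU2 (USD-11) was 2.55. Without array 1 USD-454 stood at 1.38 and USD-237 at 2.99, with a polysomal difference of -3.94, and without array 2 they stood at 2.65 and 1.48, with polysomal differences of -2.27 and -2.43. Clones that fell below the typical clone turned above 0 on other scales, and 1 rise turned below 0.
On the control scale the values were USD-685 0.017, USD-415 0.023, USD-141 0.024, USD-133 0.031, USD-705 0.032, USD-189 0.048, USD-591 0.14, USD-160 0.15 and USD-528 0.16. Next came USD-460 0.16, Tr-cpk 0.21, USD-565 0.22, Tr-217 0.27, USD-104 0.27, USD-109 0.30, USD-762 0.33, S16 0.39 and USD-599 0.44. Then came USD-622 0.45, L17 0.49, USD-30 0.51, USD-67 0.51, USD-766 0.52, USD-186 0.53, Tr-418 0.55, USD-433 0.55 and USD-48 0.59. Further values were USD-117 0.59, USD-216 0.60, USD-235 0.61, USD-167 0.63, USD-519 0.68, USD-448 0.69 and USD-218 0.76. By the dye swap the values were S14 0.0058, USD-223 0.0097, USD-745 0.013, USD-309 0.013, USD-547 0.027, USD-47 0.028, USD-184 0.032, USD-182 0.049 and USD-219 0.061. Next came USD-129 0.071, USD-256 0.076, USD-378 0.10, L17 0.11, USD-189 0.12, USD-331 0.12, USD-133 0.13, USD-49 0.16 and Tr-217 0.16. Then came USD-125 0.18, USD-565 0.20, USD-205 0.21, USD-141 0.22, USD-491 0.23, USD-377 0.26, USD-762 0.33, Tr-cpk 0.34 and USD-90 0.35. Further values were USD-460 0.43, USD-104 0.46, USD-379 0.47, USD-415 0.61, USD-711 0.67, S16 0.67, Tr-416 0.69, USD-766 0.72 and USD-235 0.72. Higher still were USD-216 0.74, USD-528 0.75, USD-705 0.77, USD-448 0.80, USD-117 0.81, USD-160 0.91, USD-109 0.94, USD-67 0.98 and USD-622 1.01. The last were USD-186 1.12, USD-30 1.14, Tr-418 1.16, USD-599 1.19, USD-519 1.23, USD-167 1.28, USD-433 1.28, USD-48 1.37 and USD-218 1.47. In the authors' deposited table the values were USD-547 0.0073, USD-309 0.0084, USD-256 0.016, USD-189 0.018, USD-378 0.020, USD-184 0.043, USD-182 0.051, USD-331 0.058 and USD-129 0.064. Next came Tr-217 0.085, L17 0.11, USD-141 0.12, USD-205 0.13, USD-49 0.15, USD-565 0.17, USD-377 0.17, USD-491 0.30 and USD-125 0.30. Then came USD-762 0.31, USD-90 0.34, USD-460 0.35, S16 0.44, USD-104 0.47, USD-379 0.52, USD-766 0.62, USD-711 0.64 and Tr-416 0.66. Further values were USD-528 0.66, USD-705 0.71, USD-415 0.71, USD-216 0.78, USD-117 0.85, USD-235 0.91, USD-622 0.93, USD-67 1.06 and USD-448 1.07. Higher still were USD-160 1.07, USD-109 1.10, USD-30 1.11, Tr-418 1.17, USD-599 1.33, USD-48 1.46, USD-433 1.53, USD-218 1.70 and USD-167 1.75. The last were USD-186 1.76, USD-519 2.11 and Tr-cpk 2.61. With median centring in place of loess the rise of ribosomal protein L5 (USD-213) became -0.10.

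No paired analysis was possible because replicate numbers name the dye order and pair no samples across groups. The precision is limited by the 2 arrays and by the dim hydrated channel of array 1. A fold of a clone not well above background in either hydrated channel is a bound or rests on a dim signal. Falls are relative to the typical clone, since most turned or lost their call on scales set by the controls. The spread behind each test is pooled over arrays of other treatments.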

Other observations

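Among the 138 clones whose log2 ratios varied over the 8 arrays with an SD above 0.8, 2 of 9453 pairs kept a root mean square difference under 0.15 over all 8 arrays. The unannotated clones USD-585 and USD-601 stood at 2.06 and 2.06 in rapid-dried rehydrated total RNA, with a root mean square difference of 0.075, and lie next to each other in the files. USD-355 and USD-57, also unannotated, stood at 2.28 and 2.27, with a difference of 0.12, and lie 65 places apart. Whether the clones of a pair carry the same gene was not tested.

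In the authors' deposited table the highest ratio was 661 on array 1 and 35.2 on array 2. The log2 ratios of that table correlated between the arrays at 0.33 over all clones and at 0.90 over the 273 clones well above background in all 4 channels. On array 1, 15.2% of spots had a median signal of 0 in the hydrated channel, against none on array 2.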
